A study of Mus musculus with 6 samples.

Results

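The genes examined were the insulin-like growth factor (IGF) ligands, their signalling receptor, the IGF binding proteins and the protease Pappa in primary mouse chondrocytes after silencing of Pkm2. They comprised 10 members, Igf1, Igf2, Igf1r, Igfbp2, Igfbp3, Igfbp4, Igfbp5, Igfbp6, Igfbp7 and Pappa, taken by gene symbol from the 55416 genes of the deposited table. All 10 passed the filter on low counts, which left 15269 genes for testing.

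IGF-1 and IGF-2 are secreted growth factors that act through the receptor tyrosine kinase encoded by Igf1r, and in cartilage they are known to promote matrix synthesis and chondrocyte survival. In the extracellular space the ligands are held by IGF binding proteins, which prolong their life and limit their access to the receptor. Proteases such as pappalysin-1, the product of Pappa, cut certain binding proteins and free the ligand, and the stanniocalcins Stc1 and Stc2 inhibit pappalysins.

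Chondrocytes are the cells of cartilage, and Pkm encodes pyruvate kinase, the last enzyme of glycolysis, of which PKM2 is a splice form. In cultures of wild-type cells, 3 libraries came from cells given scrambled siRNA (siNC) and 3 from cells in which Pkm2 was silenced by siRNA (siPKM2), and total RNA was sequenced. Both groups were grown in DMEM/F12 with fetal bovine serum. The supplementary methods name Lipofectamine RNAiMAX as the reagent that carried siRNA into cultured chondrocytes. No further agent is named for either group. The time from transfection to RNA extraction is not given in the sources used here. The labels name neonatal knee joints as the source, whereas the methods describe chondrocytes from the knees of young adult mice. The titles call all 3 treated libraries siPKM2, but the genotype label reads PKM3 knockdown for replicate 2 and PKM4 knockdown for replicate 3. No source says whether the libraries of a group came from separate animals, so the p-values refer to these libraries only.

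Pkm, counted for the whole gene with both of its splice forms, stood at 2335, 2746 and 1674 CPM (counts divided by the library total and brought to a common scale) in siNC replicates 1 to 3 and at 336, 541 and 309 CPM in siPKM2, so each treated library lay below each control library. Totals lay between 22317065 and 25691096 estimated counts. The summed level of 14 chondrocyte marker genes was 58471, 11860 and 56946 CPM in siNC and 50737, 16596 and 49337 CPM in siPKM2, so both libraries of replicate 2 stood apart from the others. In bulk RNA, fewer cells of a type and less RNA per cell cannot be told apart. Of the markers of other cells, 2 of 7 for macrophages, 4 of 6 for endothelium, 3 of 6 for muscle and 3 of 7 for osteoblasts stayed under 1 CPM in every library. Their summed levels in siNC and siPKM2 ranged over 9.59-77.6 and 14.4-63.5 CPM for macrophages, 1.31-2.67 and 3.02-3.42 CPM for endothelium, 5.78-6.67 and 6.29-12.1 CPM for muscle, and 27.1-377 and 20.5-142 CPM for osteoblasts. The 9 fibroblast markers summed to 8557-16087 CPM in siNC and 5862-11808 CPM in siPKM2. Interferon-stimulated genes (12 listed) summed to 89.6, 2099 and 112 CPM in siNC and to 1491, 3970 and 1167 CPM in siPKM2, higher in every pair. The part of these differences in the results below was not tested.

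Levels are CPM scaled for library composition unless TPM (a like measure that also corrects for transcript length) is named. The test was edgeR's quasi-likelihood test, two-sided, with p-values adjusted after Benjamini-Hochberg across the 15269 genes. It was run by group alone and then with the replicate number as a block, because libraries of the same number deviated together. P-values of the fit by group alone rest on the spread between libraries of a group. Those of the block fit rest on how far the difference between siPKM2 and siNC varied from pair to pair. A called gene had an adjusted p under 0.05 together with a fold over 2 in either direction. By group alone, 0% of all genes were called, none of the members had an adjusted p under 0.05, and 3 of 10 had an unadjusted p under 0.05 against 17.6% of all genes. By DESeq2 2 of 10 members had an adjusted p under 0.05, against 5.38% of all genes.

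With the replicate block, Pappa and Igfbp7 rose, Igfbp2 fell, and the other 7 members had adjusted p-values over 0.05. These 3 of 10 compare with 23.1% of all genes past the same threshold, 12.3% higher and 10.8% lower. Igfbp2 was the only member called at a fold over 2, where the background was 5.83%. Without replicate 1 or without replicate 3 the block fit left 0 members past the threshold, but these fits called 0 of all genes, Pkm included, and so do not show which pairs carry a call. With both libraries of replicate 2 left out, 7 of 10 members passed (Pappa, Igfbp7 and Igfbp3 higher, Igfbp2, Igfbp4, Igfbp5 and Igf1r lower) against 39.1% of all genes. Of these 7, Igfbp2 and Igfbp5 were called, against 10.8% of all genes. This fit rests on 2 pairs, with 1 residual degree of freedom per gene. Without replicate 2 and without the block 0 members passed, while 507 of all genes were called. The median log2 fold change over the members was -0.19 by group alone and -0.17 with the block, beside -0.02 and -0.01 over all genes tested.

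**Figure D1:**
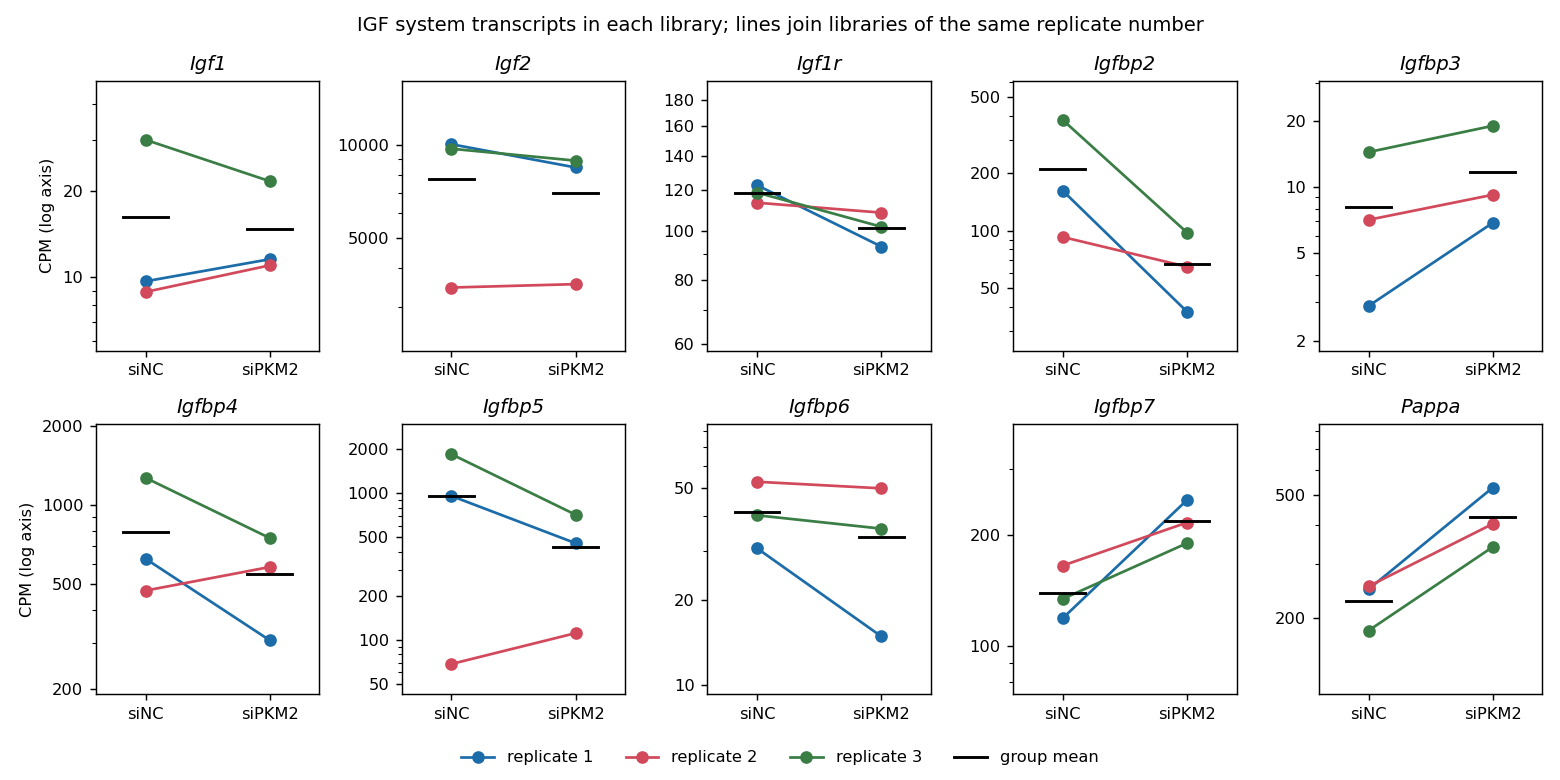
CPM on a log axis for each member in the 3 siNC and 3 siPKM2 libraries, with lines joining libraries of the same replicate number and black bars at the group means. Pappa and Igfbp7 lie higher in siPKM2 along every line and do not overlap between groups, whereas Igf1, Igf2, Igfbp4 and Igfbp5 have lines that cross or run in opposite directions, with replicate 2 far below the others for Igf2 and Igfbp5.

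Of the 10 members, Pappa and Igfbp7 had groups that did not overlap with siPKM2 higher, as did 12% of all genes, and Igf1r had groups that did not overlap with siPKM2 lower, as did 12.3% of all genes. Counted by pair, 3 members (Igfbp3, Igfbp7 and Pappa) were higher in all 3 pairs against 30.5% of all genes, and 3 (Igf1r, Igfbp2 and Igfbp6) were lower in all 3 pairs against 30.6%. The other 4 were mixed. For 5 of the 10 members the range within siNC was wider than the largest difference of any pair on the log2 scale.

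The seed of an siRNA guide strand can pair with other messengers. Whether it did so in these cultures was not tested. The third siPkm2 is the one that the supplement names as selected for the study, although no label ties it to the sequenced cultures. Its antisense (guide) strand is shown 5′ to 3′ without its overhang, with bases 2 to 8, the seed, in capitals.
siPkm2 guide: uGUUUCUCcagacagcaug
A messenger base-paired to this seed holds the letters GAGAAAC. The search covered the 3′ UTR of the longest-UTR GENCODE transcript of each gene. There 3 of the 10 members held these letters, beside 17.9% (2371 of 13273) of tested genes with a 3′ UTR of at least 50 bases. This share was not matched for the length of the 3′ UTR. Igf1r held 2 copies in 7267 bases, Igfbp4 held 1 in 2813 bases and Igfbp5 held 2 in 4445 bases. These sites are printed with the match in capitals, on the strand of the gene, with coordinates of the match on GRCm38.
Igf1r site at chr7:68230057-68230063, plus strand: cccagtatgGAGAAACtgcctaaca
Igf1r site at chr7:68231652-68231658, plus strand: ggcgatttaGAGAAACgaacattcc
Igfbp4 site at chr11:99052025-99052031, plus strand: acgggagaaGAGAAACctcattctt
Igfbp5 site at chr1:72862040-72862046, minus strand: gagagaagaGAGAAACagcaaggca
Igfbp5 site at chr1:72860981-72860987, minus strand: cagatcagaGAGAAACtaacatgag
The 3 members that changed with the block (Igfbp2, 312 bases; Igfbp7, 240 bases; Pappa, 5784 bases) held no such letters in their 3′ UTR. A match of letters is a description and does not show binding.

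Among the ligands, Igf2 was by far the more abundant messenger and neither ligand passed the test. Igf2 (ENSMUSG00000048583, chr7:142650766-142666816, minus strand, GRCm38) encodes IGF-2, the ligand best known for fetal growth, from an imprinted locus. It measured 10042, 3458 and 9710 CPM in siNC and 8447, 3546 and 8888 CPM in siPKM2. The groups overlapped, and both libraries of replicate 2 lay below the other 4. The fitted log2 fold change was -0.15 (SE 0.54, adjusted p = 0.917 by edgeR), and with the block it was -0.11 (SE 0.13, adjusted p = 0.552). H19, the imprinted non-coding RNA beside Igf2, was also lowest in replicate 2, at 859 CPM in siNC and 1989 CPM in siPKM2, against 6342 to 11737 CPM in the other 4 libraries. The annotation places Igf2os on the opposite strand with 98 bases of shared exon and between 84.9 and 558 counts, and Gm49394 on the same strand with 3284 bases of shared exon and at most 14.9 counts. Whether counting used the strand is not stated, and these counts are small beside the 85482 to 250801 of Igf2.

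Igf1 (ENSMUSG00000020053, chr10:87858265-87937042, plus strand) encodes IGF-1, the ligand that mediates much of the action of growth hormone. It stood at 9.69, 8.90 and 30.0 CPM in siNC and at 11.6, 11.0 and 21.6 CPM in siPKM2. In both groups replicate 3 was the highest library, at 3.38 times the lowest in siNC and 1.96 times in siPKM2. Fitted by group alone it gave a log2 fold change of -0.14 (SE 0.54, adjusted p = 0.925), and with the block 0.01 (SE 0.19, adjusted p = 0.960), so its sign was not fixed by these data. The deposited TPM of Igf1 gave another picture than its counts, at 4.88, 4.28 and 13.4 TPM in siNC and 3.92, 3.56 and 8.62 TPM in siPKM2. TPM was lower in all 3 pairs, at 0.803, 0.832 and 0.644 of siNC, where CPM was at 1.19, 1.24 and 0.718. The ratio of the TPM fold to the CPM fold was 0.673, 0.672 and 0.897 for Igf1 in pairs 1 to 3, while for the other 9 members it lay between 0.849 and 1.03. In limma on log2(TPM + 1) no member, Igf1 included, had an adjusted p under 0.05.

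The receptor showed the narrowest spread of the set, and its difference did not pass the test with all libraries. Igf1r (ENSMUSG00000005533, chr7:67952827-68233668, plus strand) gave 123, 113 and 119 CPM in siNC and 93.0, 108 and 102 CPM in siPKM2. The groups did not overlap, although siNC replicate 2 and siPKM2 replicate 2 differed little. Its log2 fold change was -0.23 (SE 0.12, adjusted p = 0.391) by group alone and -0.23 (SE 0.09, adjusted p = 0.134) with the block. Without replicate 2 it was -0.32 with the block (adjusted p = 0.0275), which amounts to 0.801 of the siNC level. With the block it was -0.14 without replicate 1 (adjusted p = 0.528) and -0.23 without replicate 3 (adjusted p = 0.409). The 2 seed matches printed above lie in its 3′ UTR.

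Of the binding proteins, Igfbp2 had the largest difference. Igfbp2 (ENSMUSG00000039323, chr1:72824503-72852474, plus strand) encodes a secreted binding protein with a preference for IGF-2. Its level was 162, 92.8 and 380 CPM in siNC and 37.8, 64.9 and 98.0 CPM in siPKM2. Every pair was lower in siPKM2, at 0.233, 0.699 and 0.258 of siNC, but siPKM2 replicate 3 lay above siNC replicate 2, so the groups overlapped. The log2 fold change was -1.66 (SE 0.58, adjusted p = 0.226) by group alone and -1.53 (SE 0.33, adjusted p = 0.0296) with the block, a level at 0.345 of siNC. DESeq2 without the block gave an adjusted p of 0.0443. By group alone and without siNC replicate 3, its highest library, the log2 fold change was -0.93. Leaving out both libraries of replicate 2 gave a log2 fold change of -2.03 with the block, and leaving out replicate 1 or replicate 3 gave -1.24 (adjusted p = 0.125) and -1.30 (adjusted p = 0.151).

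Igfbp7 moved the other way. Igfbp7 (ENSMUSG00000036256, chr5:77349240-77408041, minus strand) encodes a more distant relative with low affinity for IGFs that also binds insulin and matrix. It measured 119, 165 and 134 CPM in siNC and 248, 216 and 190 CPM in siPKM2, and the lowest siPKM2 library lay above the highest siNC library. Fitted log2 fold changes were 0.64 (SE 0.19, adjusted p = 0.172) by group alone and 0.65 (SE 0.15, adjusted p = 0.0351) with the block, a level 1.56 times that of siNC. Without replicate 1 it was 0.44 (adjusted p = 0.134) and without replicate 3 it was 0.72 (adjusted p = 0.143). Igfbp7 shares 85 exon bases with Polr2b on the opposite strand. Polr2b held 2062, 1666 and 1818 counts in siNC and 2310, 2289 and 2032 counts in siPKM2, higher in each pair. Igfbp7 itself held between 2975 and 5540 counts. The strand setting of the counting is not stated, and the part of Polr2b reads in the counts of Igfbp7 was not tested.

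The promoters of these 2 oppositely changed genes are shown for comparison, from 250 bases before to 50 after the start in the RefSeq annotation of GRCm38.p6, 5′ to 3′ on the strand of the gene. Capitals mark the letters GGGCGG of the GC box, bound by Sp1 family factors, or the reverse complement of these letters, and both strands were searched.
Igfbp2 promoter, chr1:72824230-72824529, plus strand: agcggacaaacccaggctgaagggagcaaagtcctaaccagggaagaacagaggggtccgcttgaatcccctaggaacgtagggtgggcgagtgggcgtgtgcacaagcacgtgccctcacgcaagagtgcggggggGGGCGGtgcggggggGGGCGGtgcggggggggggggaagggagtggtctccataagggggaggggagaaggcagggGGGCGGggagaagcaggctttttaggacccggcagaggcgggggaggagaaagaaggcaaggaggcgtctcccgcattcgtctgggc
Igfbp7 promoter, chr5:77407996-77408295, minus strand: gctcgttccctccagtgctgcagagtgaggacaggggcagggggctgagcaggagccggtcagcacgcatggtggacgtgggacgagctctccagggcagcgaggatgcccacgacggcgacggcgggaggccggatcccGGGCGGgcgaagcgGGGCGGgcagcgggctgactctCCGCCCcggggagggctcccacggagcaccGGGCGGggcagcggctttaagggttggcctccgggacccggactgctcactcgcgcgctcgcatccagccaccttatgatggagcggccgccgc
The Igfbp2 window shown held 3 GC boxes and the Igfbp7 window held 4, whereas 35.7% of the 32851 RefSeq promoters of this length held at least 1. The table holds another Igfbp2 promoter, chr1:72825137-72825436, with 0 GC boxes. None of these windows held TATAAA on either strand, which 13.6% of the promoters did. Of the 10 members 9 were in the promoter table.

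Igfbp5 and Igfbp4 were lower in pairs 1 and 3 and higher in pair 2. Igfbp5 (ENSMUSG00000026185, chr1:72857932-72874884, minus strand) encodes a binding protein that attaches to matrix and bone mineral, and its gene faces Igfbp2 end to end across 5458 bases. It showed the widest range of the set, with 960, 68.5 and 1851 CPM in siNC and 457, 111 and 715 CPM in siPKM2. The siNC libraries alone differed by 27.0 times, and both libraries of replicate 2 lay below the other 4. Igfbp5 had a log2 fold change of -1.17 (SE 1.11, adjusted p = 0.643) by group alone and -0.61 (SE 0.42, adjusted p = 0.320) with the block. Without siNC replicate 3 the fit by group alone gave -0.27, and without siPKM2 replicate 3 it gave -1.75. Leaving out replicate 2 in the block fit gave -1.23 (SE 0.11, adjusted p = 0.000522), a level at 0.426 of siNC. That fit drops the pair that went the other way. Leaving out replicate 1 or replicate 3 gave -0.34 (adjusted p = 0.709) and -0.19 (adjusted p = 0.825). Without replicate 2 and without the block the adjusted p was 0.115.

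Igfbp4 (ENSMUSG00000017493, chr11:99041244-99054392, plus strand), the binding protein best known as a substrate of pappalysin-1, gave 627, 474 and 1274 CPM in siNC and 306, 583 and 751 CPM in siPKM2. The pair of replicate 2 was at 1.23 times siNC and the other pairs at 0.489 and 0.590. Its log2 fold change was -0.53 (SE 0.47, adjusted p = 0.615) by group alone, -0.50 (SE 0.27, adjusted p = 0.213) with the block and -0.91 (SE 0.11, adjusted p = 0.00134) with the block and without replicate 2. The block fit gave -0.23 without replicate 1 (adjusted p = 0.640) and -0.36 without replicate 3 (adjusted p = 0.5515). Without replicate 2 and without the block the adjusted p was 0.349. Igfbp4 and Igfbp5 also carry the seed matches printed above.

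Igfbp6 and Igfbp3 differed less. Igfbp6 (ENSMUSG00000023046, chr15:102144362-102149511, plus strand), which binds IGF-2 in preference to IGF-1, gave 30.6, 52.8 and 40.1 CPM in siNC and 14.9, 49.99 and 36.0 CPM in siPKM2. Most of its difference lay in pair 1, at 0.487 of siNC, and the other pairs were at 0.948 and 0.897 (log2 fold change -0.41 with the block, adjusted p = 0.190). Igfbp3 (ENSMUSG00000020427, chr11:7206086-7213923, minus strand), which encodes the main IGF carrier of serum, was among the lowest members at 2.88, 7.12 and 14.5 CPM in siNC and 6.90, 9.26 and 19.1 CPM in siPKM2. The groups overlapped, and each siPKM2 library lay above the siNC library of its number. The log2 fold change of Igfbp3 was 0.53 (SE 0.64, adjusted p = 0.729) by group alone, 0.65 (SE 0.21, adjusted p = 0.0815) with the block and 0.75 (adjusted p = 0.0377) with the block and without replicate 2. The block fit gave 0.39 without replicate 1 (adjusted p = 0.236) and 0.80 without replicate 3 (adjusted p = 0.223).

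The protease was higher in every siPKM2 library than in any siNC library. Pappa (ENSMUSG00000028370, chr4:65124174-65357509, plus strand) encodes pappalysin-1, a secreted metalloprotease that cuts IGFBP-4 and IGFBP-5. It measured 248, 254 and 183 CPM in siNC and 528, 403 and 340 CPM in siPKM2, at 2.13, 1.59 and 1.86 times siNC in pairs 1 to 3. The log2 fold change was 0.89 (SE 0.23, adjusted p = 0.151) by group alone and 0.88 (SE 0.11, adjusted p = 0.0132) with the block, a level 1.85 times that of siNC. DESeq2 without the block gave an adjusted p of 0.0287. Without replicate 1 the block fit gave 0.78 (adjusted p = 0.0753) and without replicate 3 it gave 0.88 (adjusted p = 0.103).

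**Figure D2:**
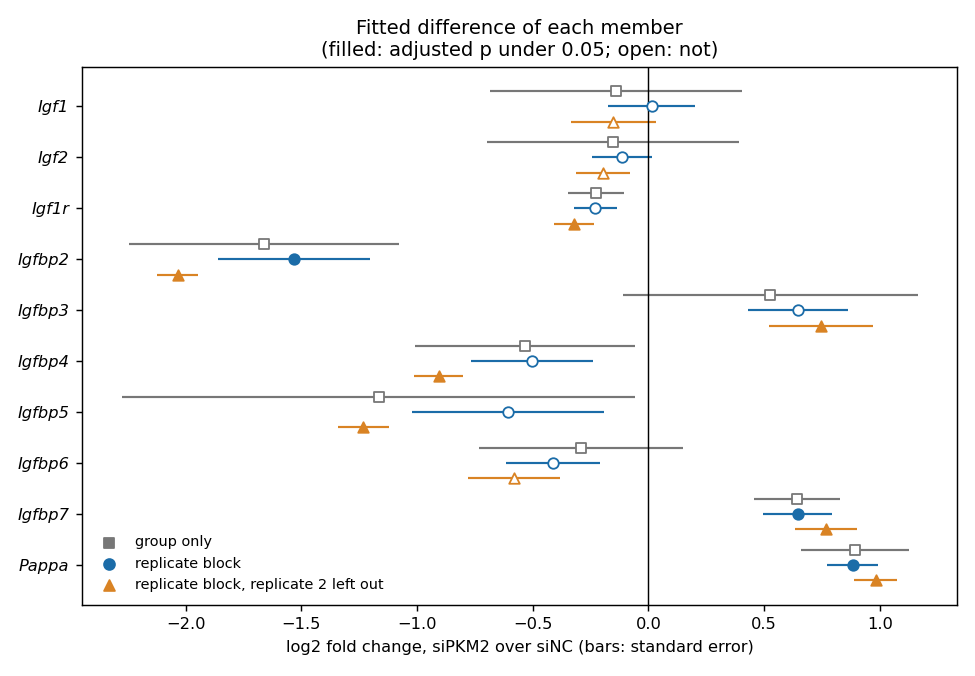
Log2 fold change of siPKM2 over siNC with its standard error for each member in 3 fits, by group alone, with the replicate block, and with the block after leaving out both libraries of replicate 2; filled symbols have an adjusted p under 0.05. No symbol of the group-only fit is filled, and Igfbp2, Igfbp7 and Pappa are filled with the block. The bars of Igfbp4 and Igfbp5 shrink once replicate 2 is left out. Pair 2 was the pair in which Igfbp4 and Igfbp5 went the other way, so this narrowing adds no support.

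Compared per length, Igf2 was the most abundant member in all 6 libraries. It stood at 6186, 2454 and 6693 TPM in siNC and at 5196, 2385 and 5699 TPM in siPKM2, between ranks 10 and 51 of all genes. Igf1 lay at the other end with Igfbp3, and Igf2 exceeded Igf1 by 500 to 1268 times in siNC and 661 to 1325 times in siPKM2. Mean TPM in siNC then ran from Igfbp4 at 554 ± 297 (SD, n = 3) over Igfbp2 at 312 ± 231, Igfbp5 at 255 ± 244 and Igfbp7 at 252 ± 59.0 to Igfbp6 at 75.0 ± 25.0, Pappa at 31.2 ± 5.40, Igf1r at 18.97 ± 1.36, Igf1 at 7.51 ± 5.09 and Igfbp3 at 6.25 ± 4.60. Within each siNC library Igfbp4 ranked above the other binding proteins, while the order of Igfbp2, Igfbp5 and Igfbp7 differed between libraries, as did that of Igf1 and Igfbp3. In siPKM2 Igfbp7 at 380 ± 43.6 TPM and Igfbp4 at 375 ± 158 TPM led the binding proteins, with Igfbp5 at 110 ± 77.9 and Igfbp2 at 96.3 ± 44.0 TPM below them.

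The mixture of binding protein messengers held a smaller share of Igfbp2 in siPKM2. Igfbp2 made up 19.6%, 15.3% and 24.9% of the summed IGFBP TPM in siNC and 6.40%, 9.36% and 11.3% in siPKM2, with no overlap. For Igfbp7 the shares were 17.5%, 33.1% and 10.7% in siNC and 51.1%, 38.0% and 26.7% in siPKM2, higher in each pair but overlapping between groups. The sum itself was 1111, 942 and 2310 TPM in siNC and 817, 1029 and 1245 TPM in siPKM2, which overlapped. Igfbp4 kept 24.7-40.9% of the sum across the 6 libraries. The ratio of Igf2 to the summed binding proteins was 2.61-5.57 in siNC and 2.32-6.36 in siPKM2. The ratio of Pappa to Igfbp4 was 0.0787, 0.1003 and 0.0284 in siNC and 0.340, 0.135 and 0.0884 in siPKM2, higher in each pair and overlapping between groups. With 3 against 3 libraries an exact two-sided permutation test cannot give a p under 0.1, and no test was made on these ratios.

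**Figure D3:**
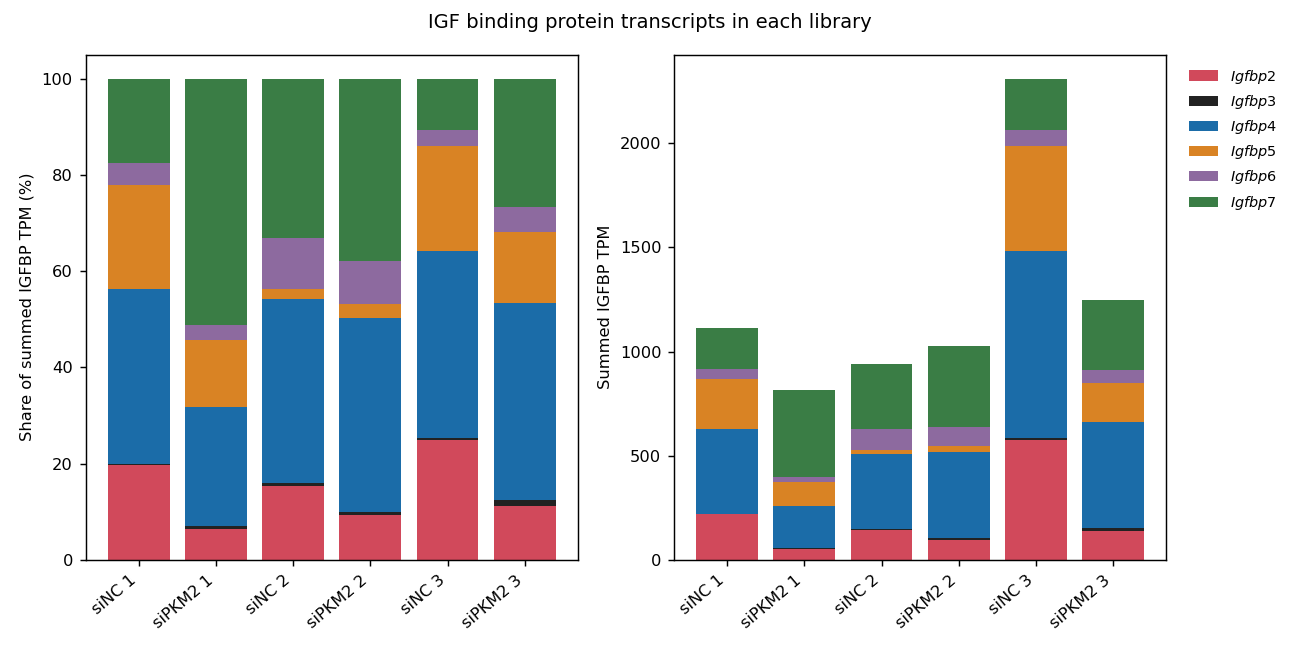
Share of the summed IGFBP TPM (left, percent) and the sum itself (right, TPM) held by each of the 6 binding protein genes in every library, with libraries of a replicate number side by side. The Igfbp2 segment is between 15.3% and 24.9% in siNC and between 6.40% and 11.3% in siPKM2, and the sum is highest in siNC replicate 3 at 2310 TPM.

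Other genes of the pathway were read from 5 lists with 63 genes, of which 56 were tested. By group alone 0 of the 56 had an adjusted p under 0.05, and 7 had an unadjusted p under 0.05, where 17.6% of all genes did. With the block 14 of the 56 had an adjusted p under 0.05 (23.1% of all genes), 6 higher and 8 lower, and 3 of these, Ptpn1, Stc1 and Socs2, were called (5.83% of all genes). DESeq2 without the block placed 2 of them, Ptpn1 and Shc1, under an adjusted p of 0.05, where 5.38% of all genes lay. All 14 differed in the same direction in every pair, which the block fit by which they were picked favours, so this adds no support. Over all genes tested, 30.5% were higher and 30.6% lower in all 3 pairs.

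Among receptors and adaptors 5 of 10 tested genes passed with the block, where 23.1% of all genes did. Ptpn1, which encodes a phosphatase of the insulin and IGF receptors, rose from 73.5, 98.7 and 63.5 CPM in siNC to 138, 190 and 160 CPM in siPKM2 (log2 fold change 1.06, SE 0.11, adjusted p = 0.0112). Shc1, an adaptor to the Ras arm, rose by 0.64 (adjusted p = 0.0142), and Igf2r, the scavenger receptor that clears IGF-2, rose by 0.45 (adjusted p = 0.0334). Insr, the insulin receptor, fell by 0.42 (adjusted p = 0.0213), and Grb10, an imprinted adaptor that restrains both receptors, fell by 0.70 (adjusted p = 0.0206). Ptpn1, Shc1 and Insr had groups without overlap, and those of Igf2r and Grb10 overlapped. Over all genes tested, groups did not overlap in 12% with siPKM2 higher and in 12.3% with siPKM2 lower. The 5 genes were picked for a low adjusted p, so the separation adds no support.

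In the PI3K-AKT-FoxO arm 2 of 17 tested genes passed with the block, both lower, as did 10.8% of all genes. Pik3r2, a regulatory subunit of PI3K, fell by 0.50 on the log2 scale (adjusted p = 0.0163). Of the binding protein relatives, proteases and inhibitors 2 of 9 passed, both higher and both stanniocalcins, where 12.3% of all genes passed as higher. Stc1 measured 2.36, 25.2 and 11.7 CPM in siNC and 6.29, 52.1 and 23.5 CPM in siPKM2, so the libraries of a group differed by more than the pairs did (log2 fold change 1.13 with the block, SE 0.12, adjusted p = 0.0117). Stc2 rose by 0.43 (adjusted p = 0.0229). The groups of Stc1 and Stc2 overlapped, and by group alone their adjusted p-values were 0.625 and 0.423. Both inhibitors of the protease and Pappa itself thus rose in the block fit.

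In the list of IGF messenger control and the growth hormone axis 2 of 11 passed with the block, where 23.1% of all genes did. Socs2, the feedback inhibitor of growth hormone signalling, stood at 41.1, 16.2 and 39.0 CPM in siNC and at 14.2, 8.17 and 19.2 CPM in siPKM2 (log2 fold change -1.18, SE 0.14, adjusted p = 0.0129). Igf2bp3, an RNA-binding protein that binds Igf2 messengers, rose by 0.66 (adjusted p = 0.0161) while Igf2 did not pass the test. Among FoxO target genes 3 of 9 passed with the block, all lower, where 10.8% of all genes passed as lower. They were the sestrins Sesn1 (log2 fold change -0.65, adjusted p = 0.0406) and Sesn3 (-0.65, adjusted p = 0.0251) and the cell cycle inhibitor Cdkn1b (-0.54, adjusted p = 0.0349). The groups of Sesn1 and Sesn3 overlapped. The rest of the list did not pass and went both ways, from -0.37 to 0.32.

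**Figure D4:**
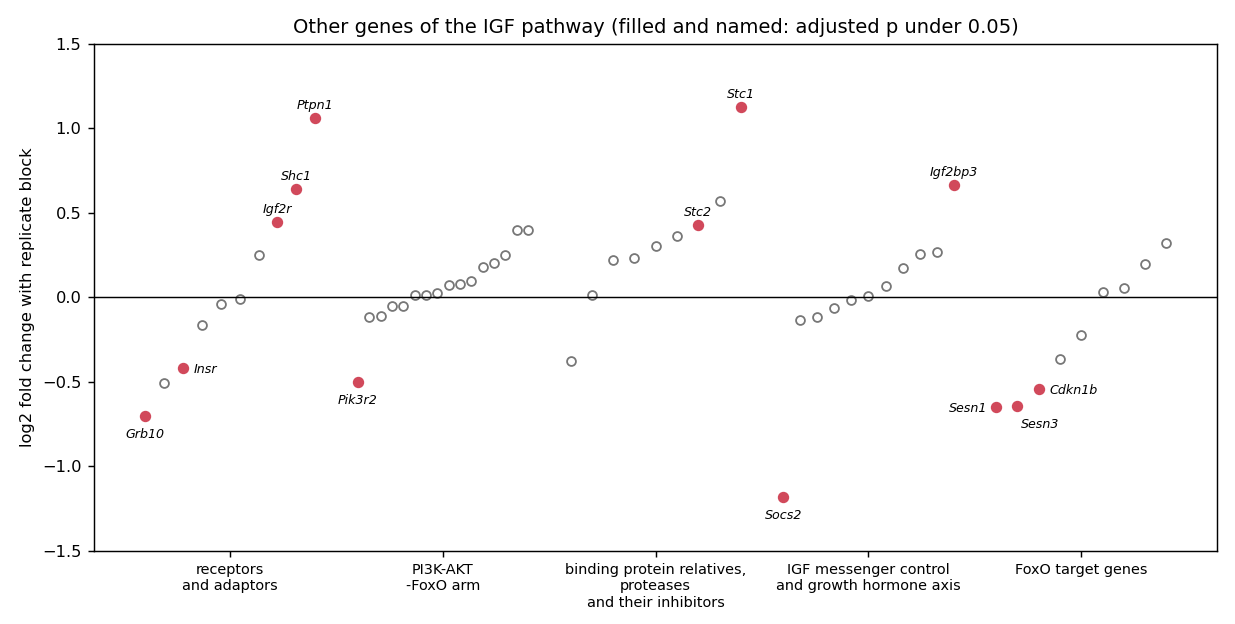
Log2 fold change with the replicate block for tested genes of the 5 pathway lists, with a point for each gene ordered by value within its list, with genes at an adjusted p under 0.05 filled and named. Ptpn1 and Stc1 are the highest at 1.06 and 1.13 and Socs2 is the lowest at -1.18. In the FoxO target list 3 of the 9 points, Sesn1, Sesn3 and Cdkn1b, are filled, all below 0, and the open points lie on both sides of 0.

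The genes whose log2 CPM followed each signalling member most closely over the 6 libraries were sought among 9771 genes with a mean of at least 10 CPM. For Igf1 they were Sfxn2, Clk2 and Ep400, with Pearson correlations of 0.99, 0.99 and 0.98. For Igf1r they were Gng10, Zfp358 and Nek4, at 0.99, 0.99 and 0.98. For Igf2 they were Cops7a (0.998), Smim10l1 (0.998) and Tbc1d22a (0.997), and this pattern is the separation of the replicate 2 libraries from the other 4. The 6 points share replicate numbers and groups, and with so many genes searched such values are a description.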

How the data were processed

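RNA was sequenced from 3 siNC and 3 siPKM2 cultures. The authors deposited estimated counts, some fractional, and TPM values for each library and gene. The deposited columns of fold changes and p-values between groups hold the study's own comparison and were not used. The submitters' processing notes name mm9 and edgeR without a role. Aligner, counting method, strand setting and annotation are not given in the sources used here. GENCODE M21 (GRCm38) held 94.0% of the identifiers and was the source of positions and UTRs. Promoters came from RefSeq.

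The estimated counts, after rounding, went into edgeR 4.0.16 (filterByExpr, TMM, quasi-likelihood test) under R 4.3.3, and into DESeq2 1.42.0 as an alternative. As a further alternative limma 3.58.1 was run on the deposited TPM on a log2 scale. Thresholds were a fold change of 2, as in the supplementary methods, and an adjusted p of 0.05. Log2 CPM for correlations used a prior count of 2. As a check of the code, the fits were run on simulated data with known folds and the same noise setting for all genes. The simulation does not show how the fits perform on these libraries. The fit by group alone was not required to recover the folds where the simulation held a replicate effect. In these data that fit gave Pkm a log2 fold change of -2.51 (adjusted p = 0.0738 by edgeR). Depth gave 72 or more counts to every member. Precision was therefore set by the spread between libraries, or by that between pair differences in the block fit. No pair of libraries within a group was a duplicate, since 52.6-73.3% of genes differed beyond sampling noise.

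Same-numbered libraries deviated together from their group means (r = 0.66, 0.76 and 0.65 across genes, other pairs at most 0.16), so the numbers were taken to pair the libraries. The labels do not say what a number marks. Alternatives were other scaling factors, other filters, DESeq2, limma on log2(TPM + 1) and log2(TPM + 0.1), the block, and libraries left out. The fit without replicate 2 and without the block was chosen after seeing the data.

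The members, gene lists and tests were chosen with earlier results of these data known. Genes named were all 10 members, Pkm, pathway-list genes with an adjusted p under 0.05 in the block fit (14 at most), and the 3 genes most correlated with each of Igf1, Igf2 and Igf1r. H19, Igf2os, Gm49394 and Polr2b were named for their position, after their values were seen. Values of 1 gene of the pathway lists are not reported here, and it enters the counts of its list only.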

Additional observations from a re-analysis of the deposited data

How the results depend on the processing

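By group alone 0 genes were called. The count was 890 with the replicate block, 1028 with DESeq2 and the block, 430 with DESeq2, 3 with upper-quartile factors, 9 with no filter, 3 with at least 10 counts in every library, 1 with limma on either TPM scale and 1 with limma without a filter. It was 0 to 1639 with the block and a pair left out, where 1639 came without replicate 2 and 0 without replicate 1 or 3, 507 without replicate 2 and without the block, and 0 to 105 with a single library left out, where 105 came without siNC replicate 2. Members called were 0 by group alone, 1 with the block, 1 with DESeq2, 1 with both and 0 to 2 with the block and a pair left out. Members with an adjusted p under 0.05 were 0, 3, 2, 3 and 0 to 7 in the same order, and 0 without replicate 2 and without the block. Pathway genes called were 0, 3, 1, 3 and 0 to 3, and 2 without replicate 2 and without the block.

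Over 200 alternative values of single members, 174 kept their direction and their side of the threshold, 15 passed the threshold in addition and 11 changed sign. Igf1 turned to 0.0148 with the block, 0.03 with DESeq2 and the block, and 0.28 with the block without replicate 3. By group alone with single libraries left out the log2 fold changes ranged from -2.04 to -0.93 for Igfbp2 and -1.75 to -0.27 for Igfbp5, both closest to 0 without siNC replicate 3, and from -0.52 to 0.67 for Igf1, -0.50 to 0.17 for Igf2, -0.009 to 1.24 for Igfbp3 and -0.69 to 0.0604 for Igfbp6. The cause was not tested. The replicate block moved Igfbp2, Igfbp7 and Pappa past an adjusted p of 0.05 and moved no other member past it. Of these only Igfbp2 was called. The fits with 2 pairs have 1 residual degree of freedom per gene.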
